A study of Mus musculus with 56 samples.

Results

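Deeply sequenced single cells (SCs) of primary mouse pituitary cultures that carried little hormone mRNA were set against cells that carried very much *Prl*. The cells were chosen by their measured hormone levels. Of 56 wells, each labelled as 1 cell, 25 had at least 1000000 counts assigned to genes. In 4 of these 25, F4, B12, H11 and H4, *Prl*, *Gh*, *Pomc*, *Cga* and *Lhb* added up to less than 50000 CPM (the counts of a gene scaled to 1000000 gene counts per well). They are called hormone-poor here. In 10 others, E1, H3, G7, F6, C1, G1, H12, A7, H9 and C2, *Prl* was at 300000 CPM or more, and they are called Prl-rich. The remaining 11 deep wells lay between these limits or were led by *Pomc*. Just inside the lower limit was H4, with 18766 CPM of hormone mRNA, and just outside it was D10, with 53881 CPM. Just inside the *Prl* limit was E1, with 308660 CPM, and just outside it was C8, with 291391 CPM.

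The cultures came from randomly cycling female C57BL/6 mice of 10 to 12 weeks, and the cells of 5 pituitaries made up a sample. The labels of these wells name no treatment. The paper's pituitary cultures assayed by real-time PCR of SCs had received gonadotropin-releasing hormone. Cells grew for 4 days, were trypsinized, kept in the RNA-stabilizing reagent RNA-Best and passed through a 10-μm filter. They were caught in a Fluidigm C1 chip made for cells of 5 to 10 μm, and SMART-Seq v4, which copies whole transcripts, was used to make their cDNA. All wells belong to 1 kind of culture with no animals or treatments to tell apart, so the wells of a side are single cells and not replicates of a condition, and no test was made.

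The anterior pituitary releases its hormones from separate endocrine lineages: lactotropes make prolactin (*Prl*), somatotropes growth hormone (*Gh*), corticotropes and melanotropes proopiomelanocortin (*Pomc*), and gonadotropes luteinizing hormone from the chains *Cga* and *Lhb*. Pou1f1 (Pit-1) is the transcription factor of the lactotrope, somatotrope and thyrotrope lineage, and it binds the *Prl* and *Gh* promoters. The gland also holds cells without hormones, among them the fenestrated endothelium of its capillaries (*Pecam1*, *Plvap*), folliculostellate and stem cells (*Sox2*, *S100b*), pericytes, fibroblasts and macrophages. Endocrine cells store peptide hormones in dense-core granules, which granins, prohormone convertases and SNARE proteins help to build and release.

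The bases before the transcription start of *Prl*, the gene that defines the Prl-rich side, and of the metallothionein genes *Mt1* and *Mt2*, both low in most hormone-poor wells, are shown for reference, 250 of each, from RefSeq on GRCm38.p6. Capitals mark matches to the Pou1f1 core (TATNCAT) in *Prl* and to the metal response element core (TGCACNC or TGCGCNC) in *Mt1* and *Mt2*, on either strand. The *Prl* stretch (chr13:27057320-27057569, plus strand) held 2 matches, the *Mt1* stretch (chr8:94178839-94179088, plus strand) 1 and the *Mt2* stretch (chr8:94172368-94172617, plus strand) 3. The GENCODE position of *Mt1*, given further on, begins inside the *Mt1* stretch. The counts of matches therefore hold for the RefSeq starts only, and bases beyond the stretches were not searched. Of 32851 promoters of this length, 7.92% held the first motif and 21.4% the second, and a match is only a likeness of letters.
Prl: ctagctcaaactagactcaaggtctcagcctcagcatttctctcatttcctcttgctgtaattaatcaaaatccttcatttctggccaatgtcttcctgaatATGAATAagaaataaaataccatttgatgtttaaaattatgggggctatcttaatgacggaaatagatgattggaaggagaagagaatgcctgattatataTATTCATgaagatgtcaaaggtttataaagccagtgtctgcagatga
Mt1: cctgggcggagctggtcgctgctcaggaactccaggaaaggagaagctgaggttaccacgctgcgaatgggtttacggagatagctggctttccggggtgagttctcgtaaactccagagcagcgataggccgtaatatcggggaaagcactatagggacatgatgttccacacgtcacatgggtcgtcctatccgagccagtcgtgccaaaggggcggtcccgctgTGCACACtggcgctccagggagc
Mt2: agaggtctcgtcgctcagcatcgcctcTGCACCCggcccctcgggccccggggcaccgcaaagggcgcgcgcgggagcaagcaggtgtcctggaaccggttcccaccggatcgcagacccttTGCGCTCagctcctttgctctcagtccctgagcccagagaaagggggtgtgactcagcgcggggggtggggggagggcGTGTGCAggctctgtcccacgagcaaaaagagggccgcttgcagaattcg

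Depth and plate position differed between the sides. Without the 5 hormone genes the hormone-poor wells kept 2113632 to 6951976 counts and the Prl-rich wells 283931 to 4570079, so that 1 count was worth 0.144 to 0.473 CPM in the former and 0.219 to 3.52 CPM in the latter, with the highest value in C2. A gene with 0 counts could be present at up to 0.432 to 1.42 CPM in the hormone-poor wells and 0.656 to 10.6 CPM in the Prl-rich wells (3 counts, for counting error only). ERCC spike-ins took 0.348% to 2.87% of counts in the hormone-poor wells and 0.144% to 11.7% in the Prl-rich wells, with the highest value in H3. All 4 hormone-poor wells lay in plate columns 4 to 6 and 10 to 12, whereas 8 of the 10 Prl-rich wells lay in columns 1 to 3 and 7 to 9; only F6 and H12 did not. Side and plate columns therefore largely cannot be told apart.

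The hormone-poor wells were not free of hormone mRNA. *Prl* stood at 2171 CPM in F4, 2286 in B12, 2069 in H11 and 14379 in H4, and at 308660, 449105 and 776624 CPM as the lowest, median and highest of the Prl-rich wells, a gap that the choice of wells fixed. All 4 hormone-poor values lay in the range of the 5 *Pomc*-led deep wells, where *Prl* was at 1216 CPM in D10, 2182 in F11, 3020 in E8, 7311 in B2 and 40662 in H2. *Gh* was at 5384 CPM in F4, 10514 in B12, 12350 in H11 and 4356 in H4. In 8 of the 10 Prl-rich wells *Gh* was below all 4 (lowest 162, median 1166, highest 28718 CPM in C2). *Pomc* was at 33.8, 102, 21.4 and 27.0 CPM in F4, B12, H11 and H4 and above 102 CPM in 9 of the 10 Prl-rich wells, the exception being F6 with 53.1 CPM. The gonadotropin chains were uneven: *Lhb* reached 1643 CPM in F4, which had *Cga* at 0.469 CPM, and *Cga* reached 640 CPM in H11, which had *Lhb* at 0.174 CPM. All 5 hormone genes counted in the total that defined the hormone-poor side, so their levels there were capped by the choice of wells.

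**Figure D1:**
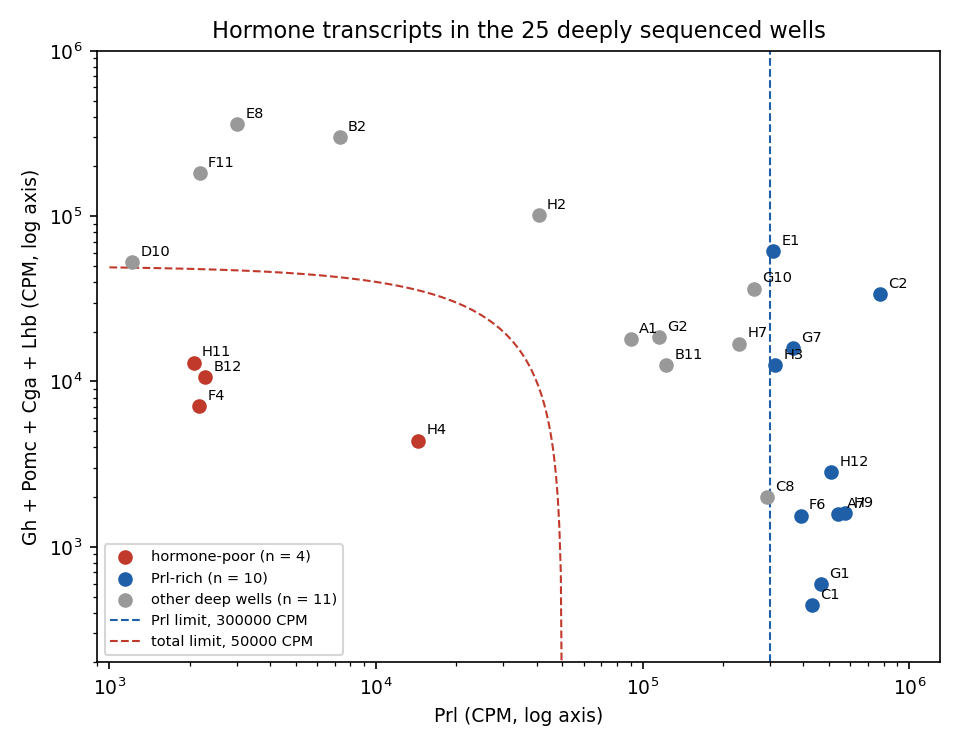
Prl against the sum of Gh, Pomc, Cga and Lhb, both in CPM on log axes, in the 25 wells with at least 1000000 gene counts, 1 point per well. The 4 hormone-poor wells sit inside the 50000 CPM limit with Prl between 2069 and 14379 CPM, and the 10 Prl-rich wells sit right of 300000 CPM.

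The cell type of each hormone-poor well was next read from 13 marker lists of 86 entries, with CPM recalculated after the 5 hormone genes had been left out, as for all values that follow. A marker counted at 100 CPM or more. Only H4 carried most of a list of a cell type without hormones. *Plvap*, a component of the diaphragms of fenestrated endothelium, was at 4978 CPM in H4, the VEGF receptors *Kdr* and *Flt1* at 1713 and 822, the junction proteins *Cdh5* and *Esam* at 1291 and 1704, *Emcn* at 1032 and *Egfl7* at 650. The other 3 hormone-poor wells had each of these 7 genes at 1.42 CPM or less. Thus 7 of 10 endothelial markers passed in H4 and their list added up to 12200 CPM, against 2.37 in F4, 11.9 in B12 and 0.705 in H11. *Pecam1* was at only 9.10 CPM in H4, and *Tie1* and *Cldn5* had no counts, so H4 is called endothelial-like from the other 7 genes.

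H4 differed in many other genes. Its largest shares of counts, not corrected for transcript length, went to *Ifitm3* (22358 CPM), *Ly6a* (17470), *Ccn1* (15903), *Edn1*, the gene of endothelin 1 (11417), and *Ctla2a* (10965). In the Prl-rich wells the highest values of *Ly6a*, *Ccn1*, *Edn1* and *Ctla2a* were 2886, 1868, 1933 and 3335 CPM. Genes that set H4 furthest apart from all other deep wells were *Mfng*, which modifies Notch receptors (1235 CPM against at most 1.68), the homeobox gene *Meox1* (754 against 0.395), *Grap* (663 against 0.129), *Trim30d*, *Apol10b*, *B3gnt3*, *Dcbld1* and a clone-named gene. Endocrine genes were low in H4: the 14 exocytosis genes added up to 6.06 CPM, the 16 secretory granule genes to 447 CPM and the 16 pituitary transcription factors to 3.79 CPM. The same sums in the 10 Prl-rich wells had minima of 395, 3008 and 106 CPM. *Prl* in H4, at 14379 CPM, nevertheless exceeded that of the other hormone-poor wells, and whether a second cell or free RNA was present in its chamber was not tested.

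F4 carried most of no list of a cell type without hormones, the nearest being 2 of 5 red blood cell genes, with *Hba-a1* at 192 CPM. Of the gonadotrope markers it had the GnRH receptor *Gnrhr* at 64.3 CPM, the transcription factor *Nr5a1* at 30.3, *Tgfbr3l* at 43.5 and *Spock3* at 141, with *Fshb* at 0, so that 1 of 5 passed 100 CPM and 4 of 5 passed 10 CPM. More of the corticotrope and melanotrope list passed 100 CPM, 2 of 6 with a sum of 3412 CPM, all from the prohormone convertases *Pcsk1* and *Pcsk2*, while *Tbx19* had no counts. The other hormone-poor wells had all 5 gonadotrope markers at 0.144 CPM or less. On the corticotrope and melanotrope list, B12 and H4 summed to 0.719 and 1.26 CPM, but H11 to 816 CPM. F4 was also rich in granule genes, with *Pcsk1* and *Pcsk2* at 2485 and 927 CPM, the granin *Scg2* at 7744 and *Scg5*, a chaperone of *Pcsk2*, at 4236. The highest *Pcsk1* and *Pcsk2* of the Prl-rich wells were 375 and 81.0 CPM. *Spp1*, the secreted glycoprotein osteopontin, took 6.84% of the counts of F4 (68385 CPM), while B12, H11 and H4 had 2.45, 12.3 and 9.85 CPM. *Spp1* was no mark of the hormone-poor side, since it reached 13997 CPM in the Prl-rich well G7 and 10348 CPM in H12. Besides *Spp1* and *Scg2*, F4 gave its largest shares to *Cst3* (8333 CPM), *Cd63* (6732) and *Ifitm3* (6070), and it was set apart by *Ldb3*, *Rtp2*, *Pradc1*, *Hs6st2*, *Enho*, the gene of adropin (157 CPM), *Rasgrp1* and 2 long non-coding RNAs.

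H11 had 2 of the 6 lactotrope and somatotrope markers at 100 CPM or more and most of no list of a cell type without hormones. Only 3 of these 6 markers, *Pou1f1*, *Esr1* and *Ghrhr*, had any counts in it. It also had 1 of 6 corticotrope and melanotrope markers at 100 CPM or more. This 1 gene made up the whole list sum of 816 CPM, as the others had no counts in H11. The highest sum of that list in the Prl-rich wells was 376 CPM. *Pou1f1* was at 705 CPM in H11 and at 1.42, 2.88 and 1.77 CPM in F4, B12 and H4, and it ranged from 0.661 to 639 CPM in the Prl-rich wells. The estrogen receptor *Esr1*, which acts on lactotropes, was at 179 CPM and the growth hormone-releasing hormone receptor *Ghrhr* at 14.5 CPM, beside a highest Prl-rich value of 53.7 CPM and no counts, respectively. *Neurod4*, a factor of the same lineage, was at 1119 CPM, and *Gal*, the galanin gene that estrogen raises in lactotropes, had the largest share of counts (14408 CPM) against at most 3697 CPM in the Prl-rich wells. *Itm2b* (5416 CPM), *Cstb* (5096), *Ctsb* (4958) and *Cst3* (4578) followed. Of the lists of cells without hormones, H11 had 1 macrophage marker, *Cd68* (456 CPM), with *Csf1r*, *Ptprc* and *Adgre1* at 0, and 1 folliculostellate marker, *Lcn2* (272 CPM). *Espnl* (640 CPM), *Pilrb1* (320) and *Dapl1* (215) and 5 non-coding or clone-named genes set it apart from the other deep wells.

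The marker lists pointed to no cell type in B12: 0 of the 86 markers reached 100 CPM in it, although it was the deepest of the 4 wells. Its largest shares went to *CT010467.1*, annotated as ribosomal RNA (9822 CPM), the autophagy receptor *Sqstm1* (6975), the ferritin light chain *Ftl1* (6906), sulfiredoxin *Srxn1* (6737) and *Actb* (6371). *Sqstm1* and *Srxn1* were above their highest Prl-rich values of 3928 and 979 CPM, whereas *Ftl1* was not (6935). *Chgb*, *Scg3* and *Cpe* of the granule list were at 449, 236 and 1324 CPM. In B12, 9 of 16 granule genes and 5 of 14 exocytosis genes were at 100 CPM or more. Its granule, exocytosis and pituitary transcription factor sums were 4334, 1086 and 321 CPM. They lay inside the Prl-rich ranges of 3008 to 32930, 395 to 3625 and 106 to 1077 CPM. The genes that set B12 apart were *Rab15* (505 CPM against at most 1.64), *Mical1* (337 against 0.547), *Tvp23a*, *Rhbdd3*, *Adgrb1*, *Myo1f*, *Ube2ql1* and a predicted gene.

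Markers of cells without hormones were not confined to the hormone-poor side. The Prl-rich well F6 also had 7 of 10 endothelial markers at 100 CPM or more, among them *Emcn* at 507, *Egfl7* at 462, *Plvap* at 386 and *Pecam1* at 329 CPM, and their sum was 2434 CPM beside *Prl* at 390971 CPM. F6 also held the pericyte gene *Kcnj8* at 541 CPM and the gap junction gene *Gja1* at 396 CPM. H12 carried the folliculostellate markers *Lcn2* (259 CPM), *Aldh1a2* (119) and *Cdh26* (103), the smooth muscle genes *Acta2* (376) and *Tagln* (194), and *Tbx19*, the corticotrope factor (147). H9 had 4 of 5 red blood cell genes over 100 CPM, with *Hba-a1* at 1014 and *Hbb-bs* at 785 CPM, and *Emcn* at 752 CPM. *Sox2*, *S100b* and the 5 lymphocyte markers had no counts in any of the 14 wells. No doublet calls were made, and a second cell in these chambers was not tested.

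**Figure D2:**
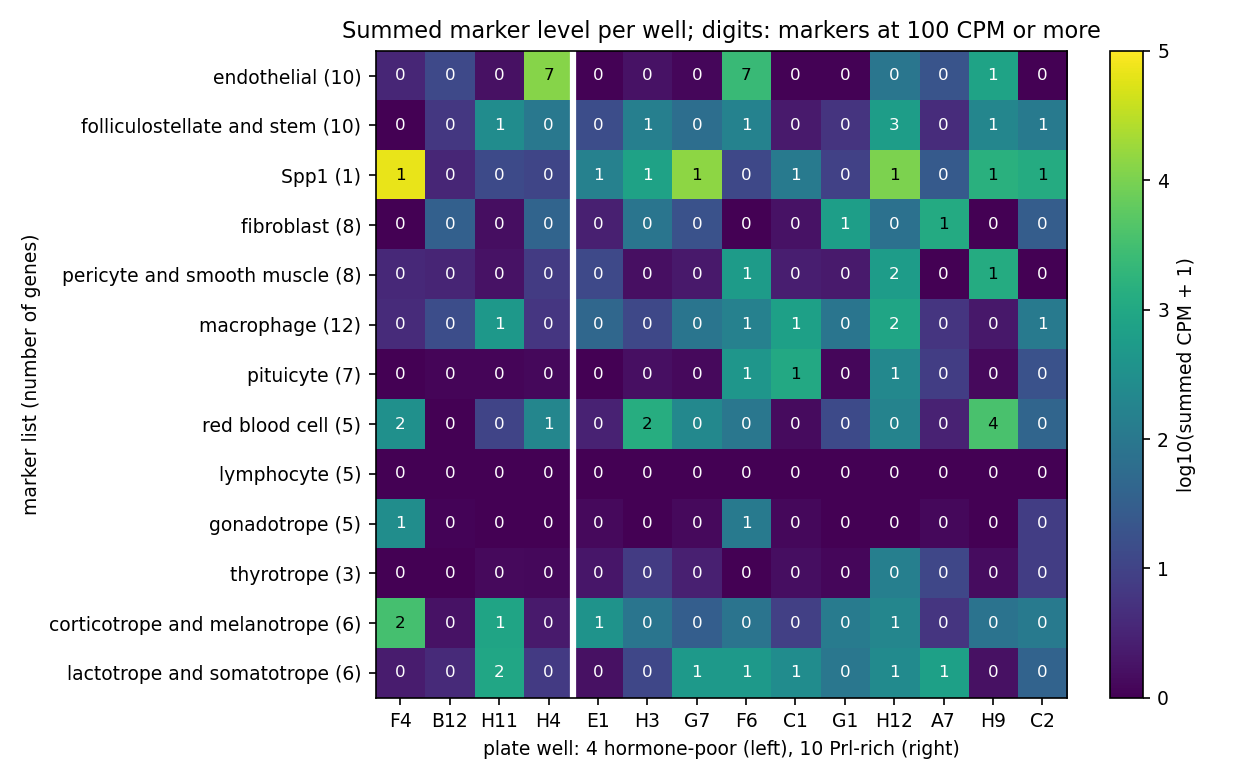
Summed level of 13 marker lists in each of the 14 wells, as log10(summed CPM + 1), with the number of markers at 100 CPM or more printed in each field and the size of each list in brackets. The endothelial list stands out in H4 (7 of 10 markers, 12200 CPM) and in the Prl-rich well F6 (7 of 10, 2434 CPM), and B12 has 0 in every list.

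Genes were then compared between the sides. A gene counted as higher where the lowest well of a side was above the highest of the other and the medians of log2(CPM + 1) differed by 2 or more, among 8648 genes with a mean of at least 10 CPM over the 14 wells. Only 7 genes were higher in the hormone-poor wells (0.0809% of the genes tested) and 30 in the Prl-rich wells (0.347%), and the median over all genes was -0.13 (hormone-poor minus Prl-rich). With so few wells some genes can separate by their order alone, and how many would do so was not tested. With no overlap required, 11.6% of genes had medians higher by 2 or more in the hormone-poor and 18.1% in the Prl-rich wells. The hormone-poor wells were also less alike among themselves than the Prl-rich wells. Pearson's r between the log2(CPM + 1) of a pair of wells was taken across all non-hormone genes, with the 38416 below the filter included. It had a median of 0.516 in the 6 pairs of hormone-poor wells, 0.665 in the 45 Prl-rich pairs and 0.604 in the 40 mixed pairs, with genes not independent. The median r of a well to the Prl-rich wells was 0.483 for H4 but 0.608 to 0.639 for F4, B12 and H11. For the Prl-rich wells it was 0.557 to 0.693.

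*Adgrg1* (chr8:94974751-95014217, plus strand, GRCm38) had the largest difference toward the hormone-poor wells. It encodes an adhesion G protein-coupled receptor, GPR56. Its level was 284 CPM in F4, 536 in B12, 121 in H11 and 851 in H4, which rest on 601 to 3725 counts. None of the 10 Prl-rich wells exceeded 1.64 CPM (median 0), none of the 11 other deep wells exceeded 0.839 CPM, and in all 52 wells outside the hormone-poor side there were at most 3 counts and 5.25 CPM. All 4 wells, the endothelial-like H4 as well as the *Pou1f1*-carrying H11, thus held it, and the difference of medians was 8.61 on the log2 scale.

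The other 6 genes of this side were found in more wells. *Klf10*, a transcription factor induced by TGF-beta, was at 566, 233, 1081 and 205 CPM in F4, B12, H11 and H4, against a highest Prl-rich value of 10.9 CPM, but at up to 1436 CPM in the other deep wells. *Flna*, the actin cross-linker filamin A, was at 494, 643, 233 and 1375 CPM against a Prl-rich median of 2.63 and maximum of 233 CPM, so that H11 and the highest Prl-rich well nearly met. *Slc48a1*, a heme transporter, was at 317, 513, 526 and 751 CPM, with 3.04 CPM as the median and 267 as the highest of the Prl-rich wells. *Galnt1*, which starts mucin-type O-glycosylation, was at 62.9 to 149 CPM, with a highest Prl-rich value of 17.2. *Hif1a*, the oxygen-regulated transcription factor, was at 135 to 191 CPM against a Prl-rich median of 12.3 and maximum of 114. *Lifr*, the receptor of leukemia inhibitory factor, rested on lower values, 5.68, 28.6, 140 and 24.5 CPM, against at most 0.547. *Slc48a1* overlaps *Hdac7*, and *Hif1a* and *Galnt1* overlap predicted genes, as *Nhp2*, *Prelid1* and *Tardbp* on the other side overlap named ones, and such genes can share reads. The strand setting of the counting was not given in the sources used here. Leaving out F4, B12, H11 or H4 raised the count of 7 to 27, 22, 27 and 37, since fewer wells overlap less. Within plate columns 4 to 6 and 10 to 12, where F6 and H12 were the only Prl-rich wells, the medians of 6 of the 7 genes differed by 2.34 to 7.91 and those of *Slc48a1* by 1.84, while the lack of overlap was fixed by the wells already compared.

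*Mt1* and *Crhbp* led the Prl-rich side. *Mt1* (chr8:94179082-94180327), a zinc-binding metallothionein, was at 342 CPM in F4 and at 2.59, 5.11 and 5.31 CPM in B12, H11 and H4, while the Prl-rich wells had 645, 3286 and 13011 CPM as lowest, median and highest. F4 was closest to the Prl-rich wells, and among the other deep wells *Mt1* ran from 2.94 to 28876 CPM. *Mt2*, its neighbour on chromosome 8, was named after its values were seen: it was at 109, 0.144, 0 and 1.26 CPM in F4, B12, H11 and H4. The 10 Prl-rich wells ran from 17.4 to 5785 CPM, and 8 of them were above all 4 hormone-poor wells, so that the sides overlapped. *Crhbp* (chr13:95431371-95444924, minus strand), which encodes a secreted protein that binds corticotropin-releasing hormone, was at 12.8, 9.35, 13.6 and 16.9 CPM in the same wells and at 249, 7102 and 46667 CPM as the lowest, median and highest of the Prl-rich wells. It took up to 4.67% of the counts in a Prl-rich well, G1.

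Genes with roles in signalling, folding and membrane traffic followed. *Rgs2*, a regulator of G protein signalling, was at 0.473 to 4.17 CPM in the hormone-poor wells and 11.0 to 4432 CPM in the Prl-rich wells. *Fkbp11*, a prolyl isomerase of the endoplasmic reticulum, was at 0.253 to 0.473 against 6.18 to 4377 CPM, and *Lgals1* (galectin 1) at 0 to 1.26 against 7.20 to 782 CPM. *Nhp2*, a protein of small nucleolar ribonucleoproteins, was at 0 to 6.32 against 85.5 to 1773 CPM. The t-SNARE *Snap23* had no counts in any hormone-poor well and 0.661 to 186 CPM in the Prl-rich wells, and *Scamp2*, of secretory carrier membranes, was at 0 to 1.06 against 5.79 to 546 CPM. Also among the 15 largest differences were *Tardbp* and *Prpf31*, which act in RNA processing, and *Prelid1* and *Marc2*, nuclear genes of mitochondrial proteins. *Sft2d2*, *Zc2hc1a* and the antisense gene *Gm16062* completed the 15 (differences of medians of -9.04 to -5.00 on the log2 scale over the 15).

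Most of these 30 genes rested on low values in some Prl-rich well: in 20 of them the lowest Prl-rich well was under 5 CPM, and it was at 50 CPM or more in only 5. These 5 were *Mt1*, *Crhbp*, *Nhp2*, *Mif* and *Gm10169*, the last pair named after their values were seen. *Mif*, a cytokine gene, was at 246, 144, 108 and 2.27 CPM in F4, B12, H11 and H4 and at 463 to 3260 CPM in the Prl-rich wells. *Gm10169* is a processed pseudogene with a like pattern (0.253 to 55.7 against 91.1 to 690 CPM), and reads may have been divided between near-identical copies, so its value is uncertain. With the hormone genes left in the total, 20 of the 30 genes still met both conditions, and *Mt1* and *Mif* were among those that did not. Thinned to 200000 counts per well, 8 of the 30 met them. Without F4, B12, H11 or H9 the count of 30 became 79, 72, 54 and 52. Adding D10 to the hormone-poor side, at a limit of 100000 CPM, left 3 genes higher on that side and 7 on the other, and *Adgrg1*, *Mt1*, *Nhp2* and *Mif* were then not among them.

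**Figure D3:**
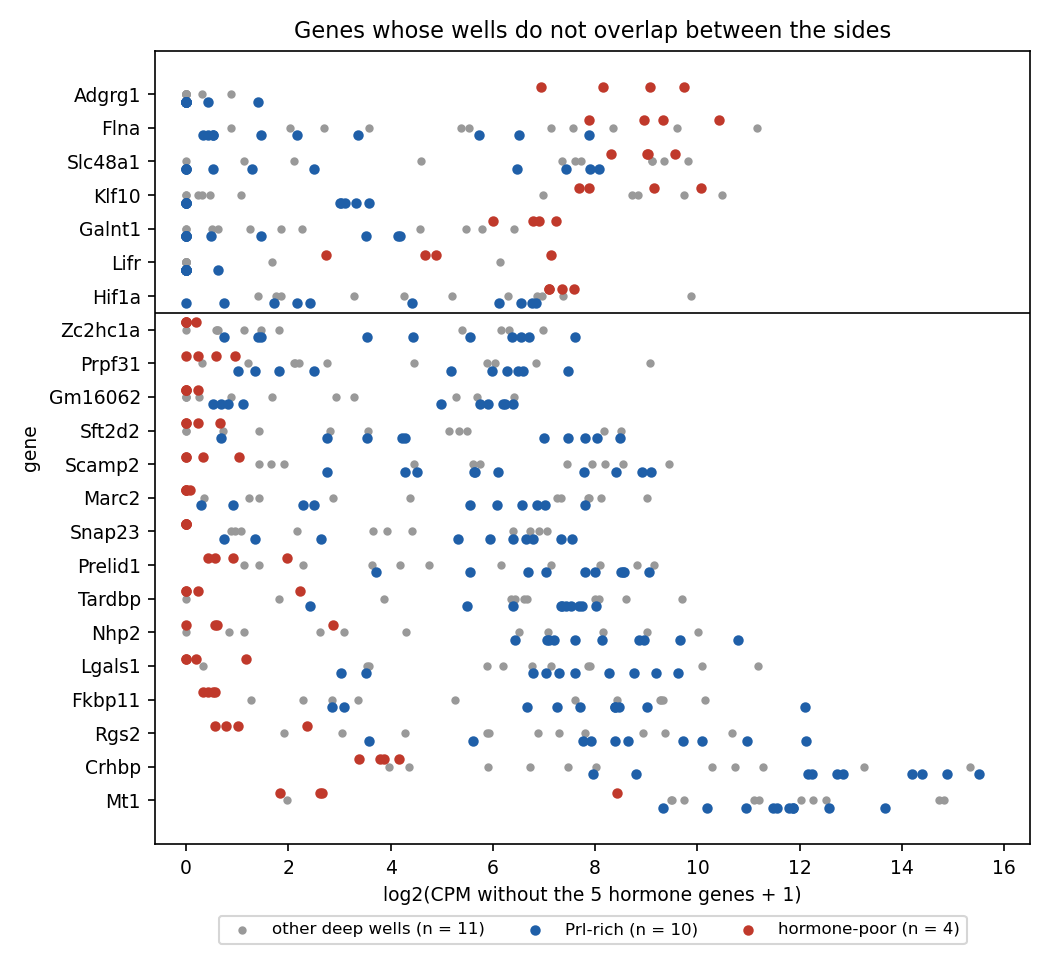
Level of 22 genes whose hormone-poor (red, n = 4) and Prl-rich (blue, n = 10) wells do not overlap, as log2(CPM + 1) without the 5 hormone genes, with the 11 other deep wells in grey; the black line separates the 7 genes higher in hormone-poor wells from the 15 with the largest differences the other way. Adgrg1 is at 121 to 851 CPM in the red wells and at most 1.64 CPM in the blue and 0.839 CPM in the grey ones.

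The secretory path was examined by lists. Of 16 secretory granule genes, 4 had medians higher by 2 or more in the hormone-poor wells (25%, against 11.6% of all genes). A lower median was found for 1 (6.25%, against 18.1% of all genes), and none separated the sides. The 4 were *Cadps*, *Pcsk1n*, *Ptprn2* and *Vgf*, with *Cadps*, which primes granules for release, at 2.84, 76.7, 59.6 and 0 CPM in F4, B12, H11 and H4 and a Prl-rich range of 0 to 73.1. The median of the list was 0.67, and it ran from 0.04 without F4 to 1.49 without H4. The granule sums were 21694 CPM in F4, 4334 in B12, 16290 in H11 and 447 in H4, and F4, B12 and H11 lay inside the Prl-rich range of 3008 to 32930 CPM. The exocytosis list had 13 of 14 genes tested, 0 higher and 2 lower by 2 or more (*Rab3a* and *Syt7*). The share of lower genes was 15.4%, against 18.1% of all genes. The exocytosis median was -0.17, and it was 0.71 without H4, -1.19 without B12 and 0.61 with the hormone genes left in the total. *Snap25*, the neuroendocrine SNARE, was at 494, 130, 556 and 1.77 CPM in F4, B12, H11 and H4 and at 5.51 to 1974 CPM in the Prl-rich wells.

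Genes of the endoplasmic reticulum, where prolactin is folded, did not separate the sides. Of 24 genes, 1 had a median higher by 2 or more in the hormone-poor wells (*Sdf2l1*; 4.17%, against 11.6% of all genes). Lower by 2 or more were 5 (20.8%, against 18.1% of all genes), namely *Spcs3*, *Manf*, *Canx*, *Creld2* and *Sec61a1*. The chaperone *Hspa5* (BiP) was at 1869, 3962, 2540 and 40.2 CPM in F4, B12, H11 and H4, and its Prl-rich values ran from 132 to 15593 CPM in G7. The list median was -0.49, but it turned to 0.39 with the hormone genes left in the total and to 0.06 with median-of-ratios size factors. The sums were 6133 to 16558 CPM in the hormone-poor and 8778 to 41182 CPM in the Prl-rich wells.

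Ribosomal protein mRNA took a smaller part of the non-hormone counts in the hormone-poor wells. The 80 genes added up to 34309 CPM in F4, 20017 in B12, 36983 in H11 and 37057 in H4, all below the lowest Prl-rich well (41300 CPM in E1; median 68336, highest 220259 in C2). Of the 77 genes tested, none separated the sides, 1 was lower by 2 or more (1.3%, against 18.1% of all genes), and the list median was -0.96. With the hormone genes left in the total, the sums overlapped: 19759 to 36425 CPM in the hormone-poor wells and 23888 to 88085 CPM in the Prl-rich wells, with medians of 35176 and 35789, and the list median was -0.14. The difference thus depended on whether hormone mRNA was part of the total.

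Immediate-early genes (IEGs), which answer stimuli and handling within minutes, were unevenly higher on the hormone-poor side. Of 9 tested genes, 4 had medians higher by 2 or more (44.4%, against 11.6% of all genes), *Jun*, *Junb*, *Zfp36* and *Btg2*. A lower median was found for 1, *Ier2* (11.1%, against 18.1% of all genes). *Jun* was at 3.78 CPM in F4, 806 in B12, 186 in H11 and 368 in H4, while the Prl-rich wells had a median of 1.12 and a maximum of 101 CPM. *Btg2* was at 265, 1490, 882 and 953 CPM against 0.661 to 393 CPM. *Atf3*, a stress-induced factor, was at 4027 CPM in B12 but between 5.11 and 12.4 CPM in the other hormone-poor wells. The list summed to 474, 10673, 1186 and 5694 CPM in F4, B12, H11 and H4, and F4 and H11 lay within the Prl-rich range of 6.00 to 4355 CPM. Its median of 1.82 was 3.73 without F4 or H11 and 1.10 without G7.

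Imprinted genes showed a like pattern. Of 10 tested genes, 4 had medians higher by 2 or more (40%, against 11.6% of all genes), *Grb10*, *Nnat*, *Mest* and *Ndn*, and none lower. *Nnat*, a small membrane protein of endocrine and neural cells, was at 1290 CPM in F4 and 4268 in H11 but at 4.03 in B12 and 0 in H4, with a highest Prl-rich value of 183 CPM. *Grb10*, an adaptor that dampens insulin signalling, was at 0, 20.0, 98.9 and 248 CPM in F4, B12, H11 and H4 and at most 2.19 CPM in the Prl-rich wells. *Mest* was near 1314 to 1948 CPM in F4, B12 and H11 and at 2.53 in H4, within the Prl-rich range of 2.20 to 1529 CPM for B12 and F4. The list median was 1.43, and it was 0.24 without F4, 0.09 with no filter on low values, 0.30 within plate columns 4 to 6 and 10 to 12 and 0.67 with D10 added.

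Interferon-induced and antigen presentation genes differed more within the hormone-poor side than between sides. They summed to 52089 CPM in H4, 11598 in F4, 1744 in H11 and 654 in B12, and to 389 to 22497 CPM in the Prl-rich wells. *Irf7*, the regulator of the interferon response, was at 5214 CPM in H4, 570 in F4, 0.705 in H11 and 0.432 in B12. *B2m*, the light chain of MHC class I, was at 4976 CPM in H4 and 2.73 in B12. None of the 12 genes was higher by 2 or more (11.6% of all genes were) and 4 were lower (33.3%, against 18.1% of all genes). The list median of -0.98 was -2.71 without H4, 0.68 without B12 and 0.12 with D10 added.

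Of 8 tested pituitary transcription factors, 4 had medians lower by 2 or more in the hormone-poor wells (50%, against 18.1% of all genes), among them *Pou1f1*, *Neurod4* and *Lhx3*, and none higher. The 16 factors of the list nevertheless summed to 1177 CPM in F4, 321 in B12, 2021 in H11 and 3.79 in H4. F4 and H11 lay above the Prl-rich range of 106 to 1077 CPM, B12 inside it and H4 below it. The list median was -1.72. It was -0.54 without F6 or G1, -0.76 without H4 and -0.65 after thinning. *Lhx3*, needed for several endocrine lineages, was at 282 CPM in F4 and had no counts in the other 3 wells. For the next 4 lists, the shares of all genes to set beside are 11.6% higher and 18.1% lower. Iron and antioxidant genes had a median of -0.50, with 1 of 13 higher (*Nqo1*, 7.69%) and 1 lower (*Hmox1*, 7.69%). House-keeping genes had -0.34, with 0 of 10 higher and 2 lower (*Tbp*, *H2afz*, 20%). The iron and house-keeping medians turned positive, to 0.38 and 0.44, with the hormone genes left in the total. Mitochondrially encoded genes had a median of -0.65 (0 of 11 higher, 1 lower, 9.09%), which turned to 0.29 in the same way. Cytoskeleton and adhesion genes had -0.22, with 1 of 19 higher (*Cnn3*, 5.26%) and 5 lower (26.3%). Among the latter was *Anxa2*, a calcium-dependent membrane-binding protein, at 3.78, 0.863, 1.76 and 1989 CPM in F4, B12, H11 and H4 and at 145 to 3358 CPM in the Prl-rich wells. Of 14 cell cycle genes 4 were tested and none differed by 2 or more. *Mki67* and *Cdk1* had no counts in any hormone-poor well, but H11 had 2 other genes of this list at 100 CPM or more and H4 had 1. The cell cycle sums were 73.3, 40.5, 616 and 279 CPM in F4, B12, H11 and H4 and 10.7 to 680 CPM in the Prl-rich wells. Among the marker lists, none of the 8 endothelial genes tested differed by 2 or more in its medians as H4 was the only hormone-poor well with any of the list at 100 CPM or more, beside F6 and H9 on the Prl-rich side.

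**Figure D4:**
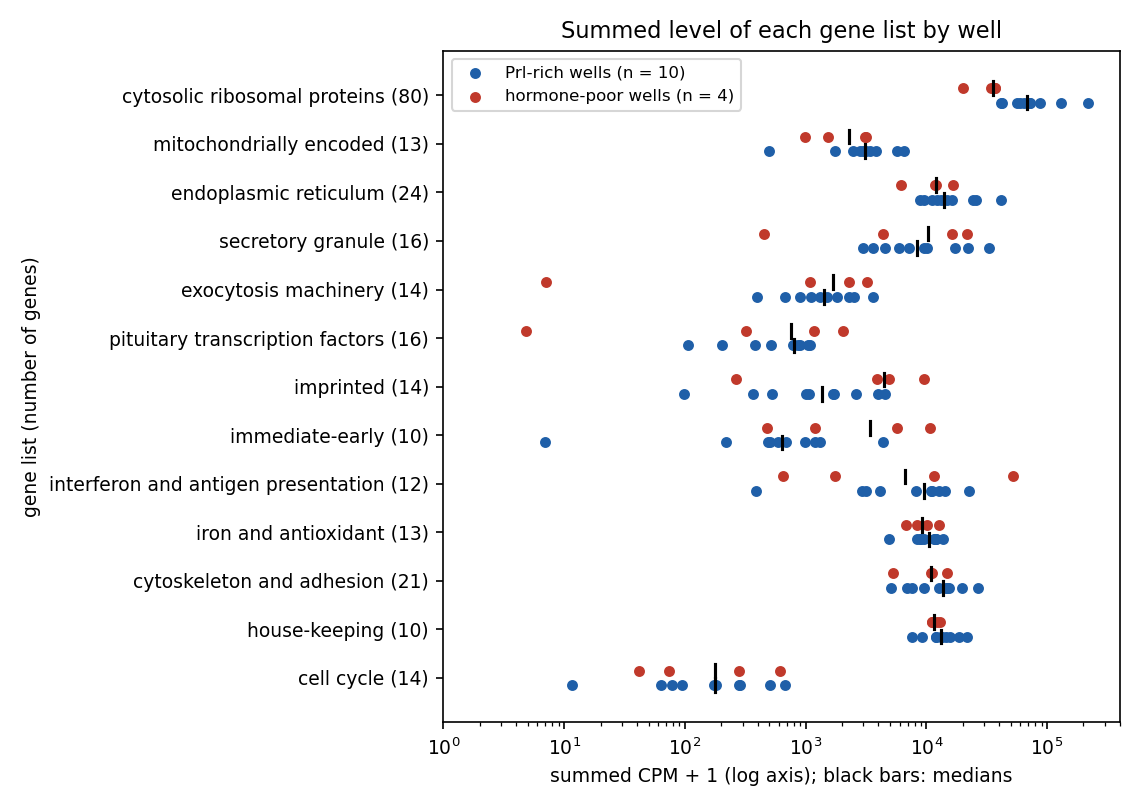
Summed CPM + 1 of 13 gene lists, without the 5 hormone genes, on a log axis, with 1 point per well, red for the 4 hormone-poor and blue for the 10 Prl-rich wells; black bars are medians and the number of genes is in brackets. Ribosomal protein sums do not overlap (20017 to 37057 against 41300 to 220259 CPM), and H4 is the lowest point in the exocytosis (6.06 CPM) and pituitary transcription factor (3.79 CPM) rows.

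The number of genes detected was compared at equal depth by thinning each well to 200000 non-hormone counts. At this depth 5750 genes had at least 1 count in F4, 6865 in B12, 4778 in H11 and 3650 in H4, and 4153, 5962 and 8279 genes in the lowest (H3), median and highest (F6) Prl-rich well. H4 was below all Prl-rich wells and the other 3 lay within their range. H3 and H4 also had few genes with at least 5 counts, 1432 and 2322.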

How the data were processed

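Wells of 1 mouse pituitary culture type were grouped by their labels into 1 group. The sides compared here were cut from measured hormone levels, so no test, p-value or standard error is given and no comparison has a replicate check. The members and lists were chosen with earlier results of these data known. The deposited values are estimated counts per gene made by the authors, with no molecular identifiers; 33.5% of the values above 0 were not whole (tolerance 1e-09), and they were not rounded. The submitters' processing notes name STAR 2.5.1b, featureCounts 1.5.0-p1 and the mm10 build, while the strand setting and annotation used for these cells were not given in the sources used here. Symbols and positions were taken from GENCODE M21 (GRCm38), where 46488 of 47069 identifiers matched, and the 92 spike-ins were left out of totals.

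CPM were computed per well, and, for all comparisons, again without the 5 hormone genes. CPM are not corrected for length, so levels of different genes are not compared. Levels were compared as log2(CPM + 1) for genes with a mean of at least 10 CPM over the 14 wells, by medians and by overlap of the sides. Wells were thinned without replacement to 200000 counts for the genes detected. Named were the 5 hormone genes, genes of the lists, the 15 largest non-overlapping differences in each direction, and for each hormone-poor well the 5 genes with most counts and the 8 that stood furthest apart from all other deep wells; others are marked as chosen after their values were seen. Alternatives were the pseudocount, the filter, the scaling, thinning, the limits of both sides and of depth, plate columns, the marker minimum and leaving out each well. The values of 1 gene of the lists are not reported here. Doublets were not called. Floors cover counting error only, since amplified reads are not independent molecules. The code was tested on simulated data. Python 3.11.15, numpy 2.4.6, scipy 1.17.1, pandas 2.3.3 and matplotlib 3.10.9 were used.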

Additional observations from a re-analysis of the deposited data

Results flagged for a closer look

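The sum of each list, taken as log2(summed CPM + 1), was examined for a well far from the others of its side. Such a well had a gap to its nearest neighbour that took more of the whole log2 range than Dixon's 95% critical value allows. This held for 9 of 50 groups of wells, where about 1 in 20, or 2.5, would be met by chance among like wells. The wells of a side are single cells that need not be alike, so the 9 are a description and no test. On the hormone-poor side, *Spp1* in F4 was at 68385 CPM against 2.45 to 12.3 CPM in the others, gonadotrope markers in F4 summed to 279 CPM against 0 to 0.144, and ribosomal protein genes in B12 summed to 20017 CPM against 34309 to 37057. On the Prl-rich side, gonadotrope markers in F6 summed to 114 CPM (*Spock3*) against at most 7.04 in the others, and thyrotrope markers in H12 to 142 CPM against at most 10.8. Interferon and antigen presentation genes were low in G1, at 389 CPM against 2944 to 22497, and immediate-early genes in A7, at 6.00 CPM against 220 to 4355. Iron and antioxidant genes were low in C2, at 4868 CPM against 8406 to 13822, and mitochondrially encoded genes in E1, at 498 CPM against 1760 to 6484.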

How the results depend on the processing

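The 7 genes higher in hormone-poor wells became 4 with a mean of at least 100 CPM, 27 with the hormone genes left in, 17 with median-of-ratios size factors, and 3 with either side widened (hormone total under 100000 CPM, or *Prl* at 200000 CPM or more), and 7 to 37 with 1 well left out. The 30 genes higher in Prl-rich wells became 18 with a pseudocount of 10 CPM, 11 with a mean of at least 100 CPM, 14 after thinning, 7 and 19 with the wider limits, and 31 to 79 with 1 well left out. After seeing the data, wells in plate columns 4 to 6 and 10 to 12 alone (4 against 2) were added, which gave 48 and 872 genes with a median over all genes of -1.70, and a minimum of 50 CPM in the lowest well of the higher side, which gave 6 and 5. Columns 1 to 3 and 7 to 9 gave no value, as no hormone-poor well lies there. In the other plate columns the list medians were -3.62 for folliculostellate, -3.80 for pericyte, -3.54 for transcription factor, -3.00 for cytoskeleton and -2.96 for cell cycle genes, and also -4.45 for endothelial (0.12 over all columns), -3.84 for corticotrope, -3.05 for red blood cell and -2.35 for interferon genes. The folliculostellate median (-0.31) was -1.35 and -0.04 with pseudocounts of 0.1 and 10 CPM, 0.00 without a filter, -0.66 with *Prl* at 200000 CPM or more and -0.63 to 0.00 with 1 well left out. The transcription factor median (-1.72) was -3.88, -0.43, -0.19 and -0.19 under the same settings, -0.65 after thinning, -0.54 from 500000 gene counts on and -2.44 to -0.54 with 1 well left out. Cytoskeleton genes (-0.22) gave -0.77 with a mean of at least 100 CPM and cell cycle genes (-0.10) -0.53 with a pseudocount of 0.1 CPM. With the hormone genes left in and with median-of-ratios factors, iron genes gave 0.38 and 0.39, house-keeping genes 0.44 and 0.50, mitochondrially encoded genes 0.29 and 0.02, endoplasmic reticulum genes 0.39 and 0.06, exocytosis genes 0.61 and 0.29 and ribosomal protein genes -0.14 and -0.29. Immediate-early genes gave 1.10 to 3.73 with 1 well left out. At 1000 CPM, 0 endothelial markers passed in F6, 0 gonadotrope markers in F4 (4 at 10 CPM) and 0 lactotrope markers in H11. Medians of genes detected were 3514 and 3712 at 5 counts and 9274 and 10208 without thinning, in hormone-poor and Prl-rich wells. Where no construction shows it, the cause was not tested. Of 431 list values under alternatives, 247 of them with 1 well left out, 394 moved by less than the standard deviation over the 4 hormone-poor wells, or not at all. These wells were so unlike that even the endothelial change from 0.12 to -4.45 counted among the 394. The number is therefore no measure of stability. No paired analysis was possible because the wells are single cells with no shared numbers. Depth limits the Prl-rich wells most, C2 above all.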
